A study of Homo sapiens with 11 samples.

Results

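Among the 58735 genes counted, 7 described here build iron-sulfur clusters or hand them to the proteins that need them: CIAO2A, CIAO1, CIAO2B and MMS19 of the cytosolic pathway, and NFS1, LYRM4 and ISCU of the mitochondrial one. CIAO2A was chosen by its readout, a low level after MYEOV siRNA in both cell lines, so its siRNA values are given as a description with no test. The other 6 were taken by function, but with earlier results of these data known, so their tests do not rest on a blind choice. The data were 11 poly(A) RNA-seq libraries in 4 groups from AsPC-1 and PANC-1, which are established human pancreatic cancer lines: 2 controls and 3 MYEOV siRNA libraries of AsPC-1, and 3 of each kind of PANC-1. The siRNA groups were harvested 48 hours after lipid transfection of siRNA against MYEOV, a gene of chromosome 11q13 known for its overexpression in several cancers. All groups grew in medium with fetal bovine serum, RPMI for AsPC-1 and DMEM for PANC-1. The labels call the controls wild type and untreated, while the protocol also describes a non-targeting siRNA, so what the controls received is not settled. The protocol names 2 MYEOV siRNAs and the libraries are numbered 1 to 3, so a number may stand for a replicate or for an siRNA. No label says that libraries came from separate cultures, so the p-values measure no more than how these libraries vary, possibly for technical reasons.

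Iron-sulfur clusters are small cofactors of iron and sulfide that serve electron transfer, catalysis and the stability of many DNA-handling enzymes. In mitochondria the desulfurase NFS1, held by LYRM4, takes sulfur from cysteine, and the cluster is first built on the scaffold ISCU. Cytosolic and nuclear proteins receive clusters through a second pathway, whose last step is a targeting complex of CIAO1, MMS19 and CIAO2B that docks on recipients such as DNA polymerases and helicases. CIAO2A is the paralog of CIAO2B; it pairs with CIAO1 without MMS19 and serves ACO1, also known as IRP1, a protein that is an aconitase with a cluster and an RNA-binding regulator of iron genes without one.

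Library totals ran from 12113093 to 15066456 counts, and from 22050 to 24025 genes had a count. Levels are CPM, counts per 1e6 counts, scaled with TMM factors over all 11 libraries. A gene is called where edgeR's quasi-likelihood test, Benjamini-Hochberg adjusted over all genes tested, gave an adjusted p under 0.05. MYEOV, the siRNA target, stood at 131 and 129.7 CPM in the AsPC-1 controls and at 42.9, 50.7 and 48.1 CPM in the siRNA libraries; in PANC-1 it stood at 75.1, 68.6 and 64.4 CPM against 37.7, 35.8 and 39.8 CPM. All siRNA libraries lay below all controls of their line. PANC-1 control 2 stood apart most among replicates, with a chi-square per degree of freedom of 5.97 and 4.87 against its 2 partners, where other pairs ran from 1.67 to 3.69. Epithelial markers EPCAM, KRT8, KRT18, KRT19 and CDH1 all had counts, summing to between 18077 and 18963 CPM in AsPC-1. In PANC-1 they summed to between 2264 and 2532 CPM in controls and between 1930 and 1963 CPM in siRNA libraries, while 5 fibroblast markers summed to between 30.3 and 37.7 CPM in controls and between 41.9 and 43.5 CPM in siRNA libraries. Sums of leukocyte and endothelial markers were at most 2.81 CPM in any library. Of the 5 fibroblast, 4 leukocyte and 3 endothelial markers, 1, CD3E, had no count in any library and PTPRC and CDH5 had at most 2. Whether these marker shifts in PANC-1 have a part in the results that follow was not tested.

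CIAO2A (ENSG00000166797, chr15:64072559-64094018 on the minus strand, GRCh38) was at less than 50% of control in both lines. In AsPC-1 its level was 52.1 and 50.7 CPM in the controls and 23.8, 23.4 and 23.2 CPM in the siRNA libraries. In PANC-1 it was 59.0, 54.4 and 53.5 CPM against 20.6, 23.4 and 26.8 CPM. The groups did not overlap in either line, and the siRNA libraries of both lines lay in the same range, between 20.6 and 26.8 CPM. Means were 51.4 ± 1.0 (SD, n = 2) and 23.5 ± 0.30 CPM (n = 3) in AsPC-1, or 45.6% of control, and 55.6 ± 2.9 and 23.6 ± 3.1 CPM (n = 3 each) in PANC-1, or 42.4% of control. The fitted log2 fold changes were -1.15 (SE 0.07) and -1.24 (SE 0.09), and without PANC-1 control 2 the second was -1.26. In bulk libraries, fewer cells that express a gene and less of its RNA per cell cannot be told apart.

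When genes averaging at least 3 in log2 CPM were ordered, CIAO2A ranked 35 of 9727 by depth of the fall in AsPC-1 and 6 of 10297 in PANC-1. Ranked by the shallower of its 2 falls it was 5 of 8885, between ALYREF at -1.27 and BZW2 at -1.14 on the log2 scale. These ranks describe the choice of the gene and support nothing beyond it.

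**Figure D1:**
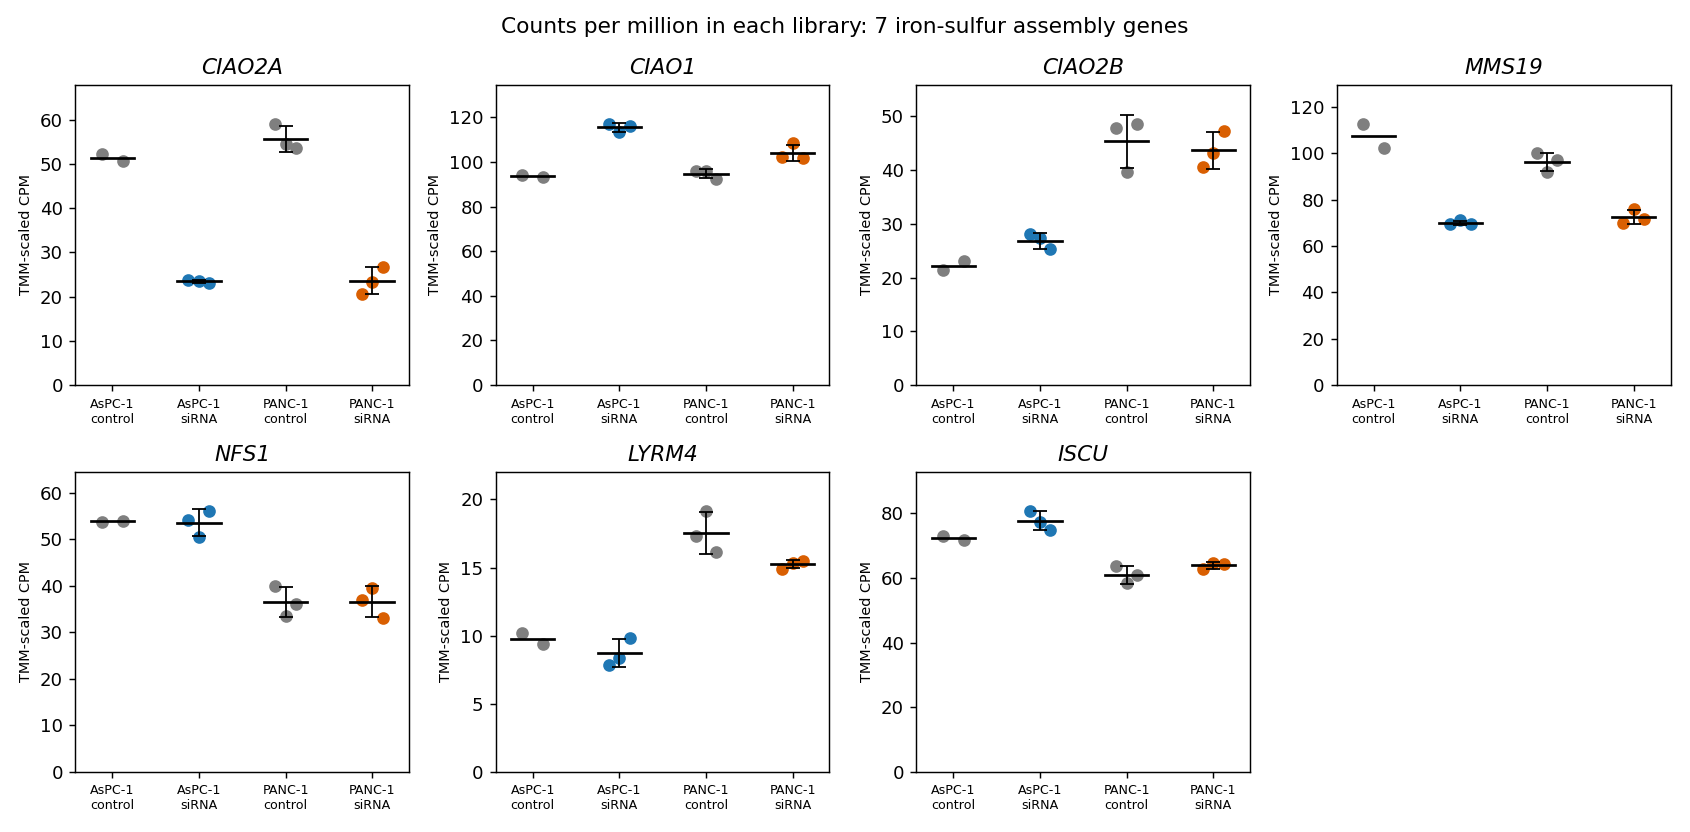
TMM-scaled CPM (vertical axes, each from 0) of the 7 genes in every library; points are libraries, horizontal bars group means, and whiskers the SD in groups of 3. CIAO2A and MMS19 are lower in every siRNA library than in every control of the same line, while NFS1 groups overlap in both lines.

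One feature of the CIAO2A transcript can be read in letters. The 7-base word CTCATGT is shown because earlier work on these libraries picked it out among genes that were lower after siRNA, so its presence in such genes is not independent evidence. Of the 4 annotated CIAO2A coding transcripts with a stop codon (GENCODE 29), 2 hold it in the 3' UTR, at chr15:64072852-64072858, and the other 2 have 3' ends without it. Poly(A) counts per gene do not show which of these ends the cells used. Each site follows 5' to 3' on the transcript strand, with the word in capitals.

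CIAO2A 3' UTR: aatgtcagagaCTCATGTttaatacatagg
MMS19 coding, chr10:97460166-97460172: gcttctctctgCTCATGTctgactgcactg
MMS19 coding, chr10:97459705-97459711: gaagggtctttCTCATGTacttaacaggct
LYRM4 3' UTR, chr6:5108124-5108130: tcatatgagaaCTCATGTcttccagtcgct
ISCA1 3' UTR, chr9:86267645-86267651: tgtattatcaaCTCATGTttttgaggaatc
CIAPIN1 3' UTR, chr16:57428927-57428933: ggtttcttcacCTCATGTtaagagaaggga
MYEOV coding, chr11:69295622-69295628: gggactcgttgCTCATGTtcacccggcagg

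The word is on the sense strand of 3' UTRs in 14.1% of genes tested in AsPC-1 and 14.2% in PANC-1 that have an annotated 3' UTR, counting any coding transcript. Its 6-base core TCATGT is in 41.4% and 41.6%. In coding sequence CTCATGT is found in 9.5% and 9.54% of the tested genes that have an annotated coding transcript with a stop codon. MMS19 holds it at 2 coding positions in all 6 of its coding transcripts with a stop codon and in no 3' UTR, and LYRM4 holds it in the 3' UTR of 1 of 5. CIAO1, CIAO2B, ISCU and NFS1 hold it in neither place. A match is a description of letters and not a site shown to be used.

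MMS19, the scaffold of the targeting complex that recognises recipient proteins (ENSG00000155229, chr10:97458324-97498794), was the one member of the 6 tested that was called in both lines. Of the 12893 genes tested in both, 3.97% were called lower in both lines and 2.78% higher in both. Its level was 112.5 and 102.2 CPM in the AsPC-1 controls against 69.5, 71.0 and 69.6 CPM in the siRNA libraries, and 99.9, 92.0 and 96.9 CPM against 69.8, 75.7 and 71.7 CPM in PANC-1. Every siRNA library lay below every control of its line. MMS19 fell to 65.2% of control in AsPC-1 (-0.63 on the log2 scale with an SE of 0.05; edgeR adjusted p = 2.83e-10) and to 75.2% in PANC-1 (-0.41 on the log2 scale with an SE of 0.06; edgeR adjusted p = 6.36e-04). The difference between the lines was 0.21 on the log2 scale and was not called (edgeR adjusted p = 0.187). Across the alternatives run, MMS19 stayed called lower in both lines.

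CIAO1, the WD40 platform of the complex (ENSG00000144021, chr2:96266132-96273349), went the other way in AsPC-1. It stood at 94.2 and 93.2 CPM in the controls and 117.0, 113.4 and 116.2 CPM in the siRNA libraries, with no overlap, and rose to 123% of control (0.29 on the log2 scale with an SE of 0.05; edgeR adjusted p = 1.86e-05). In PANC-1 it stood at 96.1, 95.7 and 92.4 CPM against 102.2, 108.3 and 101.6 CPM. These groups did not overlap either, but the log2 fold change of 0.13 was not called (edgeR adjusted p = 0.146), nor was the difference between lines of -0.17 (edgeR adjusted p = 0.228).

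CIAO2B, the paralog of CIAO2A that carries clusters to most cytosolic and nuclear recipients (ENSG00000166595, chr16:66932055-66934423), stood at 21.4 and 23.0 CPM in the AsPC-1 controls and 28.1, 27.3 and 25.2 CPM in the siRNA libraries. It was called higher there (0.26 on the log2 scale with an SE of 0.08; edgeR adjusted p = 0.0188). The call was lost without control 1 (edgeR adjusted p = 0.213), siRNA 1 (0.0606) or siRNA 2 (0.0548), in a single edgeR fit over all groups (0.0666) and in DESeq2 (0.106). In PANC-1 its levels overlapped, at 47.8, 39.6 and 48.6 CPM against 40.5, 43.1 and 47.3 CPM (log2 fold change -0.06; edgeR adjusted p = 0.743). The difference between lines, -0.34, was not called over all libraries (edgeR adjusted p = 0.174) but was without PANC-1 control 2 (-0.40; edgeR adjusted p = 0.029).

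Per kilobase of annotated exon, CIAO2A and CIAO2B can be set side by side. The ratio of the CIAO2A level to the CIAO2B level was 1.02 ± 0.074 (SD, n = 2) in AsPC-1 controls and 0.385 ± 0.017 (n = 3) in siRNA libraries. In PANC-1 it was 0.545 ± 0.060 and 0.237 ± 0.013 (n = 3 each). So the paralogs stood nearly level in AsPC-1 controls and CIAO2B was the higher one in the other 3 groups. The numerator carries the choice of CIAO2A, so the ratio is a description.

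The 3 mitochondrial members were called in neither line. NFS1 (ENSG00000244005, chr20:35668055-35699359) stood at 53.8 and 54.0 CPM in AsPC-1 controls and 54.1, 50.5 and 56.2 CPM in siRNA libraries, and at 39.9, 33.5 and 36.1 CPM against 37.0, 39.7 and 33.2 CPM in PANC-1. Groups overlapped in both lines, with log2 fold changes of -0.02 and 0.00 (edgeR adjusted p = 0.815 and 0.983). ROMO1, a mitochondrial membrane protein gene that overlaps NFS1, was not called in either line, with 0.12 and 0.02. Whether strand was used in counting is not known here, so reads of the overlap cannot be assigned with certainty.

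ISCU (ENSG00000136003, chr12:108562582-108569384) stood at 72.9 and 71.6 CPM against 80.8, 77.2 and 74.9 CPM in AsPC-1, with no overlap, and at 63.6, 58.3 and 60.8 CPM against 62.6, 64.6 and 64.3 CPM in PANC-1, with overlap. Its log2 fold changes were 0.09 and 0.07 (edgeR adjusted p = 0.205 and 0.552). LYRM4 (ENSG00000214113, chr6:5102593-5260939) was the least abundant, at 10.2 and 9.4 CPM against 7.9, 8.4 and 9.8 CPM in AsPC-1 and 17.3, 19.2 and 16.1 CPM against 14.9, 15.3 and 15.5 CPM in PANC-1. Its log2 fold changes were -0.19 and -0.20 (edgeR adjusted p = 0.318 and 0.208). A p above the threshold does not show that these levels were equal.

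Of the 6 members tested, 2 were called higher (CIAO1 and CIAO2B) and 1 lower (MMS19) in AsPC-1, where 32.9% of 14304 genes were called, 16.6% higher and 16.3% lower. In PANC-1 0 were called higher and 1 lower, where 9.08% of 14929 genes were called, 4.16% higher and 4.92% lower. By edgeR's unadjusted p, CIAO1 (0.0262) and LYRM4 (0.0478) also passed 0.05 in PANC-1, and neither was called there under any alternative. The share of all genes that passed an unadjusted 0.05 was not counted, so nothing is read from these unadjusted values. Groups did not overlap for 4 of the 6 in AsPC-1 (CIAO1, CIAO2B, MMS19 and ISCU) and 3 of the 6 in PANC-1 (CIAO1, MMS19 and LYRM4); over all genes tested the shares were 54.2% and 28.4%. Whether these counts differ from the shares over all genes was not tested, and 6 genes are too few to tell. The difference in response between lines was called for 0 of the 6 and for 4.36% of 16680 genes. Over the 6, the median log2 fold changes were 0.03 (AsPC-1) and -0.03 (PANC-1).

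**Figure D2:**
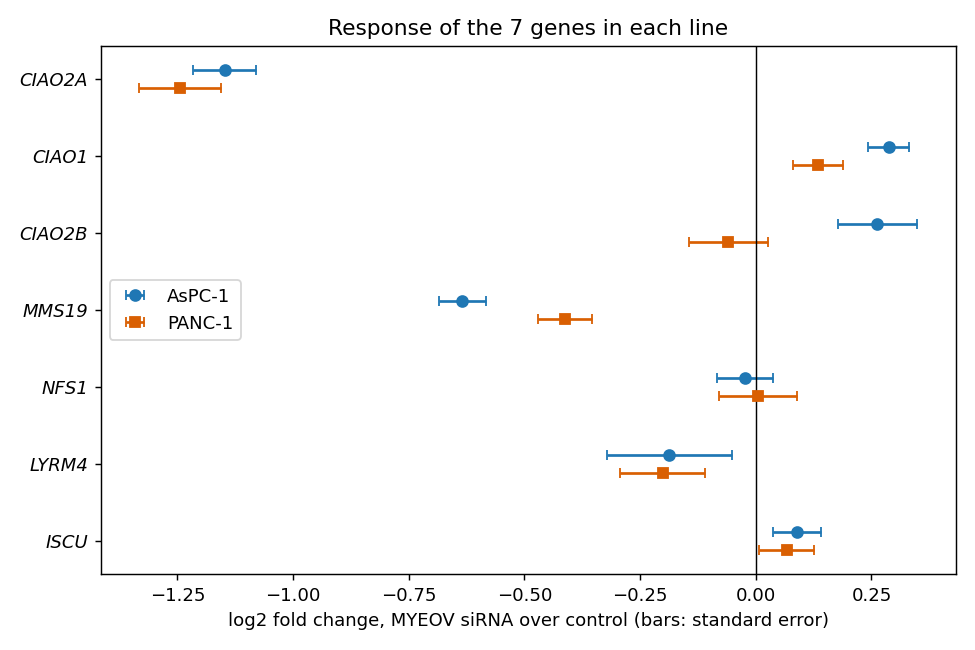
Fitted log2 fold change of MYEOV siRNA over control (horizontal axis) for the 7 genes, with circles for AsPC-1, squares for PANC-1 and bars for the standard error. CIAO2A is at -1.15 and -1.24 and MMS19 at -0.63 and -0.41, while NFS1 is at -0.02 and 0.00.

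In the controls, CIAO2A stood at 50.7 to 52.1 CPM in AsPC-1 and 53.5 to 59.0 CPM in PANC-1, without overlap, and was not called between the lines (log2 difference AsPC-1 minus PANC-1 of -0.09, SE 0.08; edgeR adjusted p = 0.298), in a comparison where 76.4% of 16182 genes were called. CIAO1 was also not called (0.01; edgeR adjusted p = 0.921). CIAO2B and LYRM4 were lower in AsPC-1, by -1.01 (edgeR adjusted p = 4.26e-07) and -0.81 (edgeR adjusted p = 2.86e-05). NFS1 and ISCU were higher, by 0.58 (edgeR adjusted p = 1.80e-05) and 0.27 (edgeR adjusted p = 0.00302). MMS19 was called higher by 0.18 (edgeR adjusted p = 0.0264), a call lost without AsPC-1 control 1 (0.11; edgeR adjusted p = 0.355) or PANC-1 control 3 (edgeR adjusted p = 0.0636) and with upper-quartile scaling (0.10; edgeR adjusted p = 0.228) or no low-count filter (edgeR adjusted p = 0.0621). These control libraries are also those of the siRNA comparisons.

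Levels can be ordered between genes only per length. In AsPC-1 controls the order of CPM per kilobase of exon was CIAO1 (23.2 ± 0.17, SD, n = 2), CIAO2A (21.2 ± 0.43), CIAO2B (20.8 ± 1.1), MMS19 (18.4 ± 1.2), ISCU (16.3 ± 0.20), NFS1 (8.94 ± 0.017) and LYRM4 (1.04 ± 0.058). Libraries of CIAO2A and CIAO2B overlapped there, and no other neighbours in the order did. In AsPC-1 siRNA libraries CIAO2A stood above NFS1 and LYRM4 only, at 9.66 ± 0.13 CPM per kilobase (n = 3), below CIAO1 at 28.7 ± 0.47, CIAO2B at 25.1 ± 1.4 and ISCU at 17.5 ± 0.66. In PANC-1 controls CIAO2B led with 42.4 ± 4.6 (n = 3), followed by CIAO1 at 23.5 ± 0.51 and CIAO2A at 22.9 ± 1.2, whose libraries overlapped; MMS19 had 16.5 ± 0.68, ISCU 13.7 ± 0.60, NFS1 6.06 ± 0.54 and LYRM4 1.86 ± 0.16. With siRNA CIAO2A stood at 9.72 ± 1.3, again above NFS1 and LYRM4 only. The lengths add up all annotated exons of a gene, so genes with many rarely used exons come out low on this scale.

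The genes around CIAO2A did not share its low level. SNX1, a sorting nexin of endosomes, starts 104 bases away on the other strand. It stood at 94.3 and 89.4 CPM in AsPC-1 controls and 102.8, 103.9 and 96.6 CPM in siRNA libraries, and was not called in AsPC-1 (log2 fold change 0.12; edgeR adjusted p = 0.0549) or PANC-1 (0.12; edgeR adjusted p = 0.187). Without AsPC-1 siRNA 3 it was called higher in AsPC-1 (0.16; edgeR adjusted p = 0.0224). PPIB, a cyclophilin of the endoplasmic reticulum, had 0.04 in both lines, and CSNK1G1, a casein kinase, -0.04 and -0.05. DAPK2, a death-associated kinase, had 0.25 and 0.65 at under 5 CPM, and SNX22 0.66 and -0.11 at under 3 CPM; none of these 4 was called. DAPK2 holds 3 copies of CTCATGT in a 3' UTR. The pseudogenes FAM96AP1 and FAM96AP2, copies of CIAO2A under its older name, and ISCUP1 had at most 2 counts in any library.

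**Figure D3:**
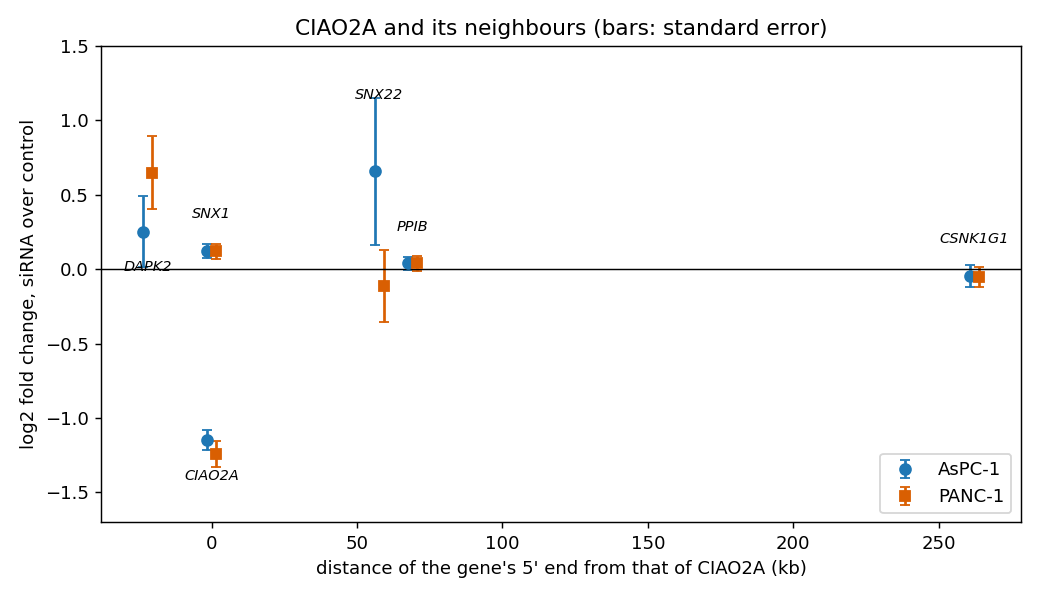
Log2 fold change of siRNA over control (vertical axis, bars for the standard error) against the distance in kilobases from the CIAO2A 5' end to that of each neighbour; circles are AsPC-1 and squares PANC-1, offset sideways for sight. CIAO2A alone lies below -1, and SNX1, at nearly the same position, lies at 0.12 in both lines.

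The genes whose pattern over the 11 libraries was most like that of CIAO2A, out of 9723 above the same level, were POLE3, MRPL58, POLA1, ZFYVE21 and PRUNE1. Likeness was the root mean square difference of log2 CPM after each gene's mean was removed: 0.130, 0.170, 0.190, 0.196 and 0.210, with Pearson r from 0.95 to 0.98. The libraries share 4 groups, which set most of such an r, and the list follows from the values that chose CIAO2A, so no test applies. POLE3, a histone-fold subunit of DNA polymerase epsilon, stood at 81.9 and 85.5 CPM in AsPC-1 controls and 39.7, 38.0 and 40.3 CPM in siRNA libraries, and at 78.0, 77.2 and 79.8 CPM against 37.0, 38.2 and 38.3 CPM in PANC-1. POLA1, the catalytic subunit of DNA polymerase alpha and a protein with cysteine motifs for an iron-sulfur cluster, stood at 46.3% of control in AsPC-1 and 52.4% in PANC-1. MRPL58, a peptidyl-tRNA hydrolase of the mitochondrial ribosome, stood at 48.5% and 49.6%. ZFYVE21 stood at 37.4% and 45.8%, and the phosphatase gene PRUNE1 at 35.7% and 40.7%. All 5 hold CTCATGT in a 3' UTR. Both the word and these 5 genes were picked from values of these libraries, so that count is not independent evidence. The site is shown here for the 2 nearest in pattern, beside the CIAO2A site given earlier.

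POLE3 3' UTR, chr9:113407548-113407554: gctaattttgtCTCATGTcttctaaaaatt
MRPL58 3' UTR, chr17:75021228-75021234: taataatgcacCTCATGTattagtcacaat

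By the same measure MMS19 came at place 73 (r = 0.94), LYRM4 at 2303 (r = 0.34), ISCU at 4400 (r = -0.39), NFS1 at 5263 (r = -0.14), CIAO1 at 5454 (r = -0.85) and CIAO2B at 5718 (r = 0.06).

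The wider pathway was read from 5 lists of 101 genes, also chosen with earlier results of these data known. Together they gave 19 genes called higher and 18 lower of 91 tested in AsPC-1, where 32.9% of all genes tested were called, and 8 and 8 of 92 in PANC-1, where 9.08% were. Whether the lists differ from all genes was not tested. Their median log2 fold changes were -0.01 in each line, against medians of 0.00 over all genes. Of the 88 listed genes tested in both lines, 7 were called lower in both and 7 higher in both. Over the 12893 genes tested in both lines, 3.97% were called lower in both and 2.78% higher in both. CTCATGT was in a 3' UTR of 5 of the 7 lower ones (CIAPIN1, POLA1, ISCA1, DNA2 and DPYD) and of 1 of the 7 higher ones (STEAP3). The word was picked out earlier among genes lower after siRNA in these libraries, so this split is not independent evidence. Among all tested genes with a 3' UTR, 14.1% (AsPC-1) and 14.2% (PANC-1) hold it.

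In the rest of the mitochondrial assembly list, 5 of 19 were called higher and 4 lower in AsPC-1 and 1 and 1 in PANC-1. The shares of all genes tested were 16.6% higher and 16.3% lower in AsPC-1, and 4.16% and 4.92% in PANC-1. The medians of the list were -0.03 and -0.04. ISCA1, which works late in the pathway on clusters of the larger kind, fell in both lines. It stood at 27.4 and 31.8 CPM against 14.9, 15.4 and 17.0 CPM in AsPC-1 (-0.92 on the log2 scale with an SE of 0.09; edgeR adjusted p = 2.64e-08) and at 27.0, 32.1 and 29.4 CPM against 16.1, 17.9 and 18.8 CPM in PANC-1 (-0.75 on the log2 scale with an SE of 0.09; edgeR adjusted p = 1.66e-04). ISCA2, its partner, was not called, at -0.01 and 0.07. IBA57, which acts with both, rose in AsPC-1 from 10.8 ± 0.44 (SD, n = 2) to 17.1 ± 0.72 CPM (n = 3; log2 fold change 0.65; edgeR adjusted p = 3.42e-05) and stood at 8.92 ± 0.24 and 8.58 ± 0.89 CPM in PANC-1 (n = 3 each; -0.05; edgeR adjusted p = 0.834). The difference between lines, -0.72, was called (edgeR adjusted p = 0.00841), though not without AsPC-1 control 2 (-0.68; edgeR adjusted p = 0.0587). FDX1, a ferredoxin that supplies electrons, was called higher in both lines, with 0.50 (edgeR adjusted p = 0.0074) and 0.43 (edgeR adjusted p = 0.0469). The AsPC-1 call was lost without control 1 (0.40; edgeR adjusted p = 0.151) or siRNA 3 (0.32; edgeR adjusted p = 0.0647). The PANC-1 call was lost without control 1 (0.33; edgeR adjusted p = 0.171), siRNA 1 (0.33; edgeR adjusted p = 0.233) or siRNA 3 (0.40; edgeR adjusted p = 0.134), and with a filter of 5 CPM (0.43; edgeR adjusted p = 0.0504).

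Of the 9 other cytosolic assembly genes tested, 0 were called higher in either line, against 16.6% (AsPC-1) and 4.16% (PANC-1) of all genes. Called lower were 3 in AsPC-1 and 1 in PANC-1, against 16.3% and 4.92% of all genes. The medians of the list were -0.13 and -0.07. CIAPIN1, the electron donor at the start of the pathway, fell in both. It stood at 44.2 and 43.0 CPM against 29.5, 29.2 and 28.9 CPM in AsPC-1 (-0.59 on the log2 scale with an SE of 0.07; edgeR adjusted p = 1.68e-07) and at 60.2, 56.3 and 58.4 CPM against 41.1, 46.5 and 42.4 CPM in PANC-1 (-0.43 on the log2 scale with an SE of 0.07; edgeR adjusted p = 0.0012). The other AsPC-1 calls, named after their values were seen, were NDOR1, the reductase partner of CIAPIN1 (-0.32; edgeR adjusted p = 0.00356), and CIAO3, which passes clusters to the targeting complex (-0.26; edgeR adjusted p = 0.0259). The CIAO3 call was lost without control 1 (edgeR adjusted p = 0.147), control 2 (0.0911) or siRNA 1 (0.113), in DESeq2 (0.141) and in a single edgeR fit over all groups (0.0696). In PANC-1 these had -0.07 and -0.10 and were not called. The scaffold genes NUBP1 and NUBP2 were not called in either line.

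Among genes listed as cytosolic and nuclear proteins that carry clusters, 3 of 26 were called higher and 4 lower in AsPC-1. In PANC-1 these were 1 and 4 of 28. Shares of all genes were 16.6% and 16.3% in AsPC-1, and 4.16% and 4.92% in PANC-1. Medians of the list were -0.01 and -0.04. Where each listed protein sits in the cell was not checked. POLA1 fell most in both lines among called genes, to log2 fold changes of -1.12 (SE 0.08; edgeR adjusted p = 2.93e-11) and -0.93 (SE 0.07; edgeR adjusted p = 2.81e-06). DPYD, which degrades pyrimidines, fell by 0.50 and 0.42 (edgeR adjusted p = 0.00108 and 0.00477), the first not being called without AsPC-1 control 2 (-0.36; edgeR adjusted p = 0.0686). The nuclease and helicase gene DNA2 was called lower, with -0.22 (edgeR adjusted p = 0.0292) and -0.28 (edgeR adjusted p = 0.0303). Its AsPC-1 groups overlapped, and that call was lost without control 1 (-0.06; edgeR adjusted p = 0.678) or siRNA 2 (0.131), in DESeq2 (0.126) and in a single edgeR fit over all groups (0.139); the PANC-1 call was lost without control 1 (0.099), siRNA 1 (0.154) or siRNA 3 (0.12). REV3L, the catalytic subunit of DNA polymerase zeta, rose from 33.4 and 33.0 to 45.4, 46.9 and 42.1 CPM in AsPC-1 and from 86.6, 88.2 and 87.6 to 102, 104 and 108 CPM in PANC-1 (log2 fold changes 0.42 and 0.26; edgeR adjusted p = 3.79e-05 and 0.0083).

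ACO1, the recipient that background knowledge ties to CIAO2A, was looked up for that reason and after its values were seen. It was not called in either line, with log2 fold changes of -0.05 (SE 0.05; edgeR adjusted p = 0.534) and 0.19 (SE 0.06; edgeR adjusted p = 0.0838). In a single edgeR fit over all groups it was called higher in PANC-1 (0.19; edgeR adjusted p = 0.0418). These are RNA levels, and neither cluster content nor RNA binding of its protein was measured. IREB2, the related regulator without a cluster, was called higher in AsPC-1 (0.28; edgeR adjusted p = 4.67e-05) and not in PANC-1 (0.16; edgeR adjusted p = 0.141), where it was called without control 2 (0.21; edgeR adjusted p = 0.0298).

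Of mitochondrial proteins with clusters, 0 were called higher in either line, where 16.6% (AsPC-1) and 4.16% (PANC-1) of all genes were. Called lower were 3 of 12 in AsPC-1 and 1 of 11 in PANC-1, against 16.3% and 4.92% of all genes. The medians were 0.02 and 0.03. NDUFS1, the large subunit of respiratory complex I, itself a holder of clusters, fell from 183 and 186 to 160, 163 and 153 CPM in AsPC-1 (log2 fold change -0.23; edgeR adjusted p = 7.29e-05). In PANC-1 it fell from 144, 149 and 146 CPM to 122 CPM in each siRNA library (-0.26; edgeR adjusted p = 0.00411). NDUFV2, another complex I subunit, had under 2 CPM throughout and overlaps an antisense gene, so its count is uncertain. It was called lower in AsPC-1 (-0.99; edgeR adjusted p = 0.0278), but not without either control (0.0847 and 0.175) or without siRNA 1 (0.0653) or siRNA 2 (0.0682).

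In the iron handling list, 11 of 25 were called higher and 4 lower in AsPC-1, against 16.6% and 16.3% of all genes, and 6 and 1 of 25 in PANC-1, against 4.16% and 4.92%, with medians of 0.09 in both lines. HMOX1, the haem oxygenase that frees iron from haem, rose from 8.80 and 8.59 to 14.6, 11.8 and 13.1 CPM in AsPC-1 and from 79.3, 74.7 and 85.5 to 137.5, 144.0 and 135.8 CPM in PANC-1 (log2 fold changes 0.58 and 0.80; edgeR adjusted p = 7.65e-04 and 2.15e-06). The ferritin light chain gene FTL rose from 1090 and 1082 to 1852, 1836 and 1783 CPM in AsPC-1 and from 442, 406 and 439 to 566, 595 and 528 CPM in PANC-1 (0.73 and 0.39; edgeR adjusted p = 9.01e-16 and 3.94e-04). That rise was smaller in PANC-1 by 0.36 on the log2 scale, and the difference was called (-0.36; edgeR adjusted p = 0.00217). The heavy chain gene FTH1 rose by 0.28 and 0.29 (edgeR adjusted p = 1.94e-07 and 0.00752). Both ferritin genes have many near-identical pseudogenes, so their counts are uncertain. STEAP3, an endosomal iron reductase, rose by 0.47 and 0.31 (edgeR adjusted p = 6.99e-06 and 0.00297).

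NCOA4, the receptor that takes ferritin to degradation, was called higher, with 0.14 and 0.22 (edgeR adjusted p = 0.00851 and 0.0166); the first call was lost without control 1 (0.119) and the second without control 1 (0.0552), siRNA 1 (0.0951) or siRNA 3 (0.07). The iron chaperone gene PCBP1 fell from 160.2 and 160.3 to 108.0, 121.8 and 116.5 CPM in AsPC-1 and from 143.7, 121.7 and 146.6 to 104.4, 109.5 and 107.4 CPM in PANC-1 (-0.49 and -0.36; edgeR adjusted p = 8.35e-09 and 0.00494). SLC39A10, a metal importer best known for zinc, rose in AsPC-1 from 96.5 and 91.4 to 163.7, 164.0 and 161.9 CPM (0.78; edgeR adjusted p = 3.82e-13) but not in PANC-1 (0.09; edgeR adjusted p = 0.677), a difference that was itself called (-0.70; edgeR adjusted p = 0.00212). The transferrin receptor gene TFRC, looked up after its values were seen, was not called, at -0.03 and -0.06.

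**Figure D4:**
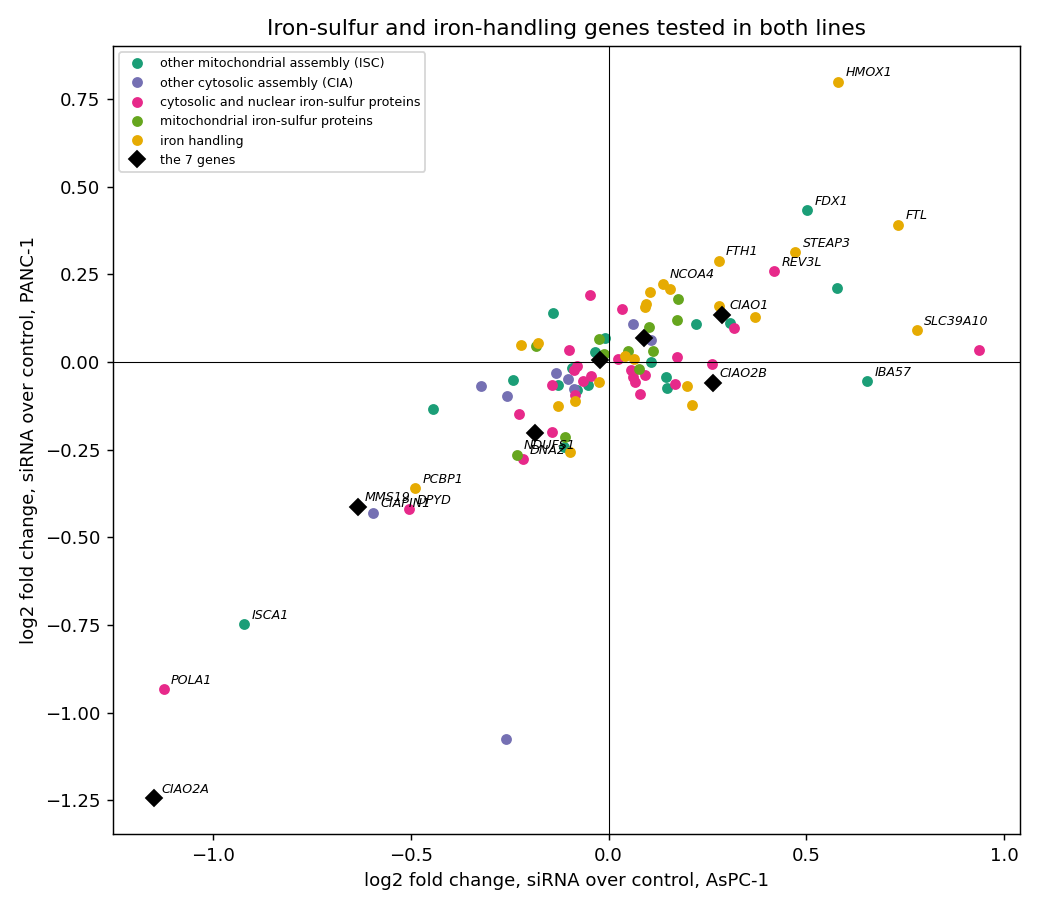
Log2 fold change in AsPC-1 (horizontal axis) against PANC-1 (vertical axis) for the 88 listed genes tested in both lines, coloured by list, with the 7 assembly genes as black diamonds and the genes the text names labelled. POLA1, ISCA1, CIAPIN1 and MMS19 lie at lower left with CIAO2A, and HMOX1, FTL and FDX1 at upper right.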

How the data were processed

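Per the labels' protocols, poly(A) RNA was sequenced as paired reads on an Illumina HiSeq. The submitters' processing notes list HISAT2, HTSeq and hg19 with no versions; no source used here gives the strand setting. Per-gene read counts, whole and unnormalized, are what the authors deposited, with 58735 rows per library and 0 rows without a gene. All identifiers matched GENCODE 29 (Ensembl 94, GRCh38), which gave names, positions and transcript sequences; no coordinate comes from the deposited tables.

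Groups follow the sample titles. AsPC-1 and PANC-1 were fitted separately by edgeR 4.0.16 under R 4.3.3 (filterByExpr, TMM, glmQLFit, glmQLFTest, two-sided), with Benjamini-Hochberg adjustment over all genes tested and a threshold of 0.05. The difference in response used 1 fit over 4 groups, and the controls were compared in a fit of their own. The SE is the absolute log2 fold change divided by the square root of F. Replicates varied by a biological coefficient of 2.77% (AsPC-1) and 6.08% (PANC-1). On simulated counts the AsPC-1 fit recovered 70.1% of changes of 0.3 and 97% of 0.6 on the log2 scale (14034 genes), and the PANC-1 fit 40.3% and 97% (14727 genes). For the difference between lines these were 26.9% and 80.6% (15892 genes). Changes were set only in genes above 3 in log2 CPM, with spread taken from the trend over genes. Weaker genes and odd libraries were therefore not represented. Alternatives tried were upper-quartile and RLE scaling, a filter of 5 CPM or none, leaving out each library, a block on replicate number, DESeq2 1.42.0 and a joint fit of all groups.

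The 7 members, the 5 lists and the word CTCATGT were chosen with earlier results of these data known. Named list genes were those called in both lines in 1 direction and, per list and line, the called genes with the largest rise and fall. Every pair of replicates differed beyond Poisson noise.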

Additional observations from a re-analysis of the deposited data

Results flagged for a closer look

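The response to siRNA differed between the lines for 4 listed genes and for the siRNA target in the edgeR interaction test. The log2 difference, PANC-1 minus AsPC-1, was -0.72 for IBA57 (edgeR adjusted p = 0.00841), -0.70 for SLC39A10 (edgeR adjusted p = 0.00212), -0.36 for FTL (edgeR adjusted p = 0.00217) and -0.35 for SLC11A2, an iron importer named after its values were seen (edgeR adjusted p = 0.0311). For MYEOV it was 0.59 (edgeR adjusted p = 0.00153), since its level fell to a log2 fold change of -1.48 in AsPC-1 and -0.88 in PANC-1. IBA57 lost its call without AsPC-1 control 2 (-0.68; edgeR adjusted p = 0.0587). SLC11A2 lost its call without AsPC-1 control 2 (-0.27; edgeR adjusted p = 0.223), AsPC-1 siRNA 1 (0.0868), AsPC-1 siRNA 2 (0.0747), PANC-1 siRNA 1 (0.0908) or PANC-1 siRNA 2 (0.101). The 4 listed genes are out of 95 listed genes tested, where 4.36% of all 16680 genes tested were called.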

How the results depend on the processing

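The log2 fold change of CIAO2A ran from -1.16 to -1.13 in AsPC-1 over 12 alternatives and from -1.34 to -1.15 in PANC-1 over 13. With the replicate block, the genes called numbered 628 in PANC-1 (1356 without it) and 241 for the difference between lines (727 without it), and the listed genes called for that difference were 2 in place of 4. The block also ended the calls of FDX1 in both lines, of DNA2, FTH1 and NCOA4 in PANC-1, of MMS19 between controls and of IBA57 and SLC11A2 between lines, and SNX1 was called higher in AsPC-1 with it (edgeR adjusted p = 0.0267). Same-numbered PANC-1 controls and siRNA libraries gave no sign of pairing: their deviations from group means correlated at 0.0096, -0.39 and -0.10 over 9724 genes. No PANC-1 control correlated best with its own number. Between different numbers, values ran from -0.37 (control 1 with siRNA 3) to 0.37 (control 2 with siRNA 3), with 0.36 for control 1 with siRNA 2. What lies behind these values was not tested. In AsPC-1 the same-numbered values were -0.04 and -0.02. Deviations of 2 controls from their mean are mirror images, so these values say little about pairing. Whether the samples were paired is not known. Leaving out 1 library gave 538 to 1712 called genes in PANC-1 and 305 to 1056 for the difference between lines, 0 to 1 of the 6 members and 2 to 6 listed genes for that difference.

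Changes of sign were seen only in values that were not called. Between controls CIAO1 was at 0.01 and became -0.077 with upper-quartile scaling, -0.012 with no low-count filter, -0.0043 with the filter of 5 CPM, -0.016 in 1 fit over all groups and -0.011 with the replicate block, and -0.020 to 0.017 without 1 library. NFS1 was at 0.00 in PANC-1 and became -0.00017 with no filter; without 1 library it was -0.057 to 0.020 in AsPC-1, -0.053 to 0.073 in PANC-1 and -0.028 to 0.082 for the difference. LYRM4 had a difference of 0.068 with the replicate block and -0.097 to 0.069 without 1 library. In PANC-1 the leave-one-out values were -0.11 to 0.028 for IBA57, -0.013 to 0.198 for SLC39A10 and -0.24 to 0.084 for SNX22, and in AsPC-1 -0.11 to 0.017 for CSNK1G1, -0.13 to 0.031 for ACO1, -0.051 to 0.0032 for TFRC and -0.19 to 0.17 for ISCA2, which was at 0.0038 there in 1 fit over all groups. In PANC-1 they were -0.0033 to 0.12 for ISCA2, -0.14 to 0.00063 for NDOR1, -0.11 to 0.058 for NUBP1 and -0.018 to 0.099 for ROMO1. The cause of these changes was not tested. In simulated counts a change of 0.3 on the log2 scale was found for 70.1% of changed genes in the AsPC-1 fit. It was found for 40.3% in the PANC-1 fit and 26.9% for the difference between lines. A change of that size can thus be missed.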
